A study of Rattus norvegicus with 72 samples.

Results

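Per1, Dbp, Klf9 and Sgk1 are 4 genes whose transcripts are known to follow the daily clock, glucocorticoid hormones or both. They were read from 5 of the 20500 array probes, namely every probe with 1 of these symbols in the platform annotation: 2 for Per1 (1350 and 7828), and 1 each for Dbp (15472), Klf9 (13924) and Sgk1 (15497). The genes were chosen because their ratios on these same arrays were already known to stand out at some doses. Their own ratios are therefore given as a description, with no test. The series holds 72 two-colour arrays of liver RNA from 36 rats (Rattus norvegicus), 3 in each of 12 groups. Treated rats had received acetaminophen, the analgesic that injures the liver at high dose, in methyl cellulose by oral gavage at 50, 150, 1500 or 2000 mg/kg, and groups differ in dose and in time, 6, 24 or 48 h. RNA from the left liver lobe of each rat was hybridised on 2 arrays, with the dyes exchanged, against a control of its own dose and time. By the protocol that control held RNA of vehicle-treated rats in equal amounts, and for 10 groups the titles call it a pool. The exceptions are both at 150 mg/kg: a mock control at 6 h, and at 24 h a mock control on 1 array of each rat and a sham control on the other. No transgene or mutation is named, and the labels leave out strain, sex, age and the clock hours of dosing and killing. The animal room had a 12-h light and dark cycle with lights on at 6 a.m.

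Per1 encodes a repressor of the circadian clock: the activators CLOCK and BMAL1 drive the Per and Cry genes through E-boxes, and the PER and CRY proteins then hold the activators back. Dbp encodes a PAR bZIP transcription factor of the clock's output arm, driven by the same activators, and its liver transcript has one of the strongest daily rhythms known. Klf9 encodes a Kruppel-like zinc finger repressor, and Sgk1 a serine and threonine kinase that regulates ion channels and transport. Glucocorticoids, the adrenal steroids whose own level has a daily rhythm, act through the nuclear receptor encoded by Nr3c1, and Per1, Klf9 and Sgk1 are each textbook targets that rise when this receptor is occupied. In rat liver the receptor also drives amino acid catabolism and gluconeogenesis, for which Tat (tyrosine aminotransferase) is the classic marker.

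Because these genes are known for shared regulators, the 250 bases just before each transcription start are shown, from RefSeq, build GRCr8. They run 5′ to 3′ on the gene's strand. Per1 lies at chr10:54304126-54304375 on the plus strand, Dbp at chr1:105312006-105312255 (plus), Klf9 at chr1:230126396-230126645 (plus), and the first of 3 listed Sgk1 starts at chr1:24807232-24807481 (minus). Capitals mark a TGACG in Klf9, which are the first letters of the cyclic AMP element without the rest of it, and a TATAAA in Sgk1, the TATA box.
Per1: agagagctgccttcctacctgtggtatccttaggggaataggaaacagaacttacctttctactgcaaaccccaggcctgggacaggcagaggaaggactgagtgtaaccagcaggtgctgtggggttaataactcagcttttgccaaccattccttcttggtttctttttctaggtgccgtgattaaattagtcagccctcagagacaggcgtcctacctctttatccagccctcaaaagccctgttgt
Dbp: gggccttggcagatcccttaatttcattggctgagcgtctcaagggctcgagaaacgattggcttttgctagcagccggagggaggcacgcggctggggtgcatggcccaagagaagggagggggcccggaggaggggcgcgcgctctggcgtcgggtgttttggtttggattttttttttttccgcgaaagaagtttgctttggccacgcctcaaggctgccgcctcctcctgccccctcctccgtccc
Klf9: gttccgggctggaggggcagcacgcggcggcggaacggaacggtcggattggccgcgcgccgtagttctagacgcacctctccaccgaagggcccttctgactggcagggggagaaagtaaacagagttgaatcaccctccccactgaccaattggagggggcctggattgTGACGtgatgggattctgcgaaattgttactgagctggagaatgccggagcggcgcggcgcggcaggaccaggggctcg
Sgk1: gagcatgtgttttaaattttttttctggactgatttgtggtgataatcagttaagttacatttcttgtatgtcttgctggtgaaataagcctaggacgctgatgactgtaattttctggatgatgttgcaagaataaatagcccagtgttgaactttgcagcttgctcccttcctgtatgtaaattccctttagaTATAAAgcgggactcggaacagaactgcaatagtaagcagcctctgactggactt
Matches to 5 motifs were sought on both strands of these windows and of those of the 2 other Sgk1 starts. They were the E-box CACGTG, the full glucocorticoid element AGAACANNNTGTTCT, its single arm AGAACA, the D-box TTATGTAA bound by PAR bZIP factors, and the cyclic AMP element TGACGTCA. None of the 6 windows held any of them. Of 33465 promoter windows of this length, 5.594% held the E-box, 0.012% the full glucocorticoid element, 17.526% the single arm, 0.828% the D-box and 1.587% the cyclic AMP element. The single arm is part of the full element, and TGACG is part of the cyclic AMP element. TGACG, found 79 to 75 bases before the Klf9 start, is in 18.219% of windows, and TATAAA, 55 to 50 bases before the first Sgk1 start and 33 to 28 before the third, is in 12.933%. Both were added after the sequences had been read. These are letters in a short window and say nothing of sites outside it.

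Each value below is a log2 ratio of 1 treated rat to its control, averaged over its 2 arrays, so that 1 is a doubling and 0 is equality. Positive values mean more RNA in the treated rat. This direction rests on the usual red over green order of the scanner software, which the labels do not state; in the other order every sign would turn. The 3 rats of a group share 1 control, so anything particular to that control moves all 3 together, and the spread between control rats is not in any error given here. Liver is a mixture of cells, and fewer cells of a type cannot be told apart from less RNA per cell. The array files give ratios, so how strongly hepatocyte or other marker genes were expressed was not measured. No member value stood at the limit of the deposited scale, and all 4 genes passed the filter for missing values. Signals behind the ratios were not used, so brightness over background is unknown and the number of arrays limits precision.

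Klf9 was the gene that stood highest at 6 h, and its order over dose turned round afterwards. At 6 h the rats given 1500 mg/kg had log2 ratios of 1.54, 1.49 and 2.12, and those given 2000 mg/kg 1.64, 2.29 and 2.22. These are group means of 1.72 ± 0.35 and 2.05 ± 0.36 (SD, n = 3 each), or 3.28-fold and 4.14-fold. The rats given 50 mg/kg stood at -0.07, 0.07 and -0.24, and those given 150 mg/kg at 0.23, 0.02 and 0.22. All 6 high dose rats thus lay above all 6 low dose rats. At 24 h the low doses were the higher ones: 1.19, 1.20 and 1.14 after 50 mg/kg (1.18 ± 0.03, 2.26-fold) and 0.74, 0.78 and 1.84 after 150 mg/kg (1.12 ± 0.62). The high doses had fallen back to 0.31, 0.73 and 0.35 after 1500 mg/kg (0.46 ± 0.24) and 0.23, -0.15 and 0.44 after 2000 mg/kg (0.17 ± 0.30). The lowest low dose rat, at 0.74, lay just above the highest high dose rat, at 0.73. At 48 h the ratio was 1.05, 0.82 and 1.00 after 150 mg/kg (0.96 ± 0.12), and -0.06, -0.11 and 0.55 after 50 mg/kg (0.12 ± 0.37). After 2000 mg/kg Klf9 was below its control in 3 of 3 rats, at -0.56, -0.67 and -0.82 (-0.68 ± 0.13, or 1.61-fold lower). After 1500 mg/kg it stood at -0.08, -0.17 and -0.78 (-0.34 ± 0.38).

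Per1 was above its control in all 12 rats at 6 h, and most so at the high doses. The log2 ratios were 1.45, 1.32 and 1.32 after 1500 mg/kg (1.36 ± 0.07, 2.58-fold) and 1.04, 1.06 and 1.19 after 2000 mg/kg (1.10 ± 0.08, 2.14-fold). They were 0.50, 0.50 and 0.29 after 50 mg/kg (0.43 ± 0.12) and 0.16, 0.45 and 0.20 after 150 mg/kg (0.27 ± 0.16). At this time both high dose groups lay above every low dose rat. The 1500 mg/kg rats lay above the 2000 mg/kg rats in the mean of the 2 probes and on probe 7828, while on probe 1350 the groups overlapped, at 0.69 ± 0.08 and 0.67 ± 0.17. At 24 h Per1 was 1.30, 1.32 and 1.06 after 1500 mg/kg (1.23 ± 0.14) and 0.46, 0.99 and 1.20 after 150 mg/kg (0.88 ± 0.38). The 2000 mg/kg group was split, with -0.16 in rat 3105 against 1.26 and 1.40 in the other rats (0.83 ± 0.87). Without rat 3105 its mean was 1.33. The 50 mg/kg rats stood at 0.26, 0.20 and 0.11 (0.19 ± 0.08). At 48 h Per1 was below its control in every rat given 1500 mg/kg, at -0.54, -0.78 and -0.82 (-0.72 ± 0.15, or 1.64-fold lower), and in every rat given 50 mg/kg, at -0.21, -0.48 and -0.49 (-0.39 ± 0.16). It stood at 0.06, 0.18 and 0.49 after 150 mg/kg (0.24 ± 0.22) and at 0.07, -0.01 and 0.31 after 2000 mg/kg (0.13 ± 0.17). The sign at 48 h therefore did not follow dose.

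The 2 Per1 probes gave ratios of unlike size. Probe 7828 was farther from 0 than probe 1350 in 31 of 36 rats, and both lay on the same side of 0 in 31. At 6 h after 1500 mg/kg probe 7828 stood at 2.04 ± 0.07 and probe 1350 at 0.69 ± 0.08. At 24 h after 150 mg/kg the values were 1.26 ± 0.55 and 0.50 ± 0.22, and at 48 h after 1500 mg/kg they were -0.97 ± 0.18 and -0.46 ± 0.13. All 12 group means had the same sign with either probe, and 7 of the 12 moved by more than the spread between rats when 1 probe was used alone. The probes also differed in order: after 1500 mg/kg probe 1350 stood higher at 24 h (0.91 ± 0.13) than at 6 h, and probe 7828 lower at 24 h (1.55 ± 0.16) than at 6 h. Over the 36 rats the probes correlated at r = 0.935, a description, since the rats of a group share a control.

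**Figure D1:**
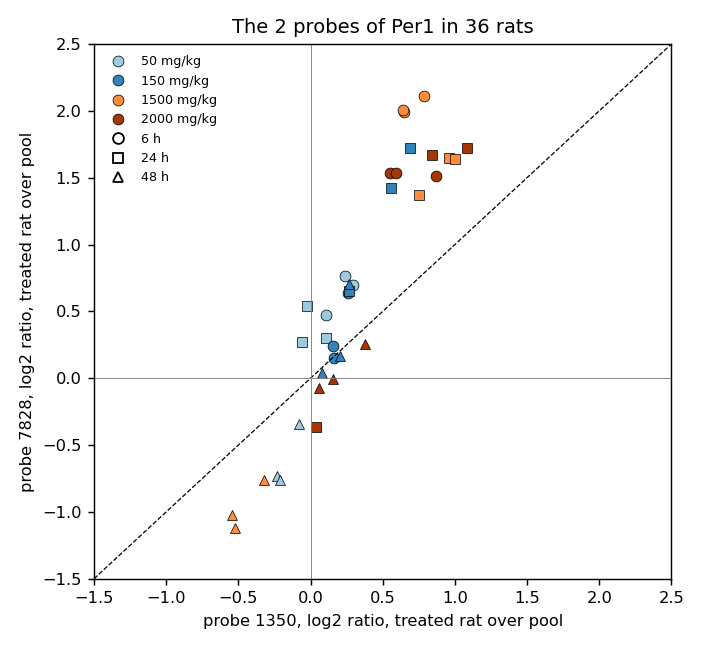
Log2 ratio of treated rat over control on the first Per1 probe (x axis) and on the second (y axis), each point 1 of 36 rats, coloured by dose and shaped by time, with the line of equality dashed. The points run steeper than the dashed line, the 1500 mg/kg rats at 6 h lying near 0.69 on the x axis and 2.04 on the y axis.

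Sgk1 had the lowest ratios of the 4 genes, and it was below its control at every dose at 6 h and 24 h. At 6 h the log2 ratios were -1.79, -2.06 and -2.22 after 1500 mg/kg (-2.02 ± 0.22, or 4.06-fold lower) and -2.34, -2.02 and -2.23 after 2000 mg/kg (-2.20 ± 0.16, or 4.59-fold lower). The low doses were below their controls as well, at -1.01, -0.29 and -1.08 after 50 mg/kg (-0.79 ± 0.44) and -0.50, -1.73 and -1.03 after 150 mg/kg (-1.09 ± 0.62). At 24 h the ratios were -1.99, -1.76 and -2.27 after 1500 mg/kg (-2.01 ± 0.26), and -0.91, -1.77 and -1.91 after 50 mg/kg (-1.53 ± 0.54, or 2.89-fold lower). They were -1.59, -1.11 and -0.43 after 150 mg/kg (-1.04 ± 0.58), and nearest to 0 after 2000 mg/kg, at -0.57, -0.15 and -0.34 (-0.35 ± 0.21). The 1500 and 2000 mg/kg rats did not overlap at 24 h, a gap between means of 1.65. All 24 rats of these 2 times were below their controls. At 48 h Sgk1 was above its control in 3 of 3 rats given 1500 mg/kg, at 0.30, 1.58 and 1.46 (1.11 ± 0.71, 2.16-fold). The rats given 2000 mg/kg stood at -0.26, 0.21 and -0.20 (-0.08 ± 0.26). The low dose rats scattered widely, from 1.40 through 0.48 to -1.01 after 50 mg/kg (0.29 ± 1.22), and over -0.43, -1.28 and 0.00 after 150 mg/kg (-0.57 ± 0.65). Means of these 2 groups lie within their own spread.

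Dbp ran in another order over time: low or near its control at 6 h after the high doses, then above it at 24 h and 48 h. At 6 h the log2 ratios were -0.90, -0.51 and -0.83 after 1500 mg/kg (-0.75 ± 0.21, or 1.68-fold lower), and 0.32, -0.54 and -0.39 after 2000 mg/kg (-0.20 ± 0.46). The 150 mg/kg rats stood apart from them at 0.48, 1.03 and 1.13 (0.88 ± 0.35, 1.84-fold), while the 50 mg/kg rats were at -0.23, 0.08 and -0.46 (-0.20 ± 0.27). At 24 h Dbp was 1.09, 1.00 and 0.87 after 2000 mg/kg (0.99 ± 0.12, 1.98-fold) and 1.24, 0.78 and 0.09 after 1500 mg/kg (0.70 ± 0.58). Both low doses stayed close to 0, with 0.47, -0.06 and 0.16 after 50 mg/kg (0.19 ± 0.26) and 0.10, 0.29 and 0.12 after 150 mg/kg (0.17 ± 0.10). At 48 h all 6 high dose rats lay above all 6 low dose rats, with 1.61, 1.75 and 0.56 after 1500 mg/kg (1.31 ± 0.65, 2.48-fold) and 1.29, 0.88 and 0.53 after 2000 mg/kg (0.90 ± 0.38, 1.86-fold). The low dose rats were at 0.08, -0.04 and -0.14 after 50 mg/kg (-0.03 ± 0.11) and at -0.15, -0.04 and -0.08 after 150 mg/kg (-0.09 ± 0.05). The Dbp probe also read differently by dye. Its mean over the 36 arrays with the treated rat in Cy5 was 0.57, and over the 36 with the treated rat in Cy3 it was 0.08. The corresponding means were 0.46 and 0.47 for Per1, 0.49 and 0.65 for Klf9, and -0.97 and -0.74 for Sgk1. An equal dye effect cancels in the mean of a rat's 2 arrays. On 1 orientation alone 4 Dbp group means had the other sign: 2000 mg/kg at 6 h, 50 mg/kg at 24 h and both low doses at 48 h.

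**Figure D2:**
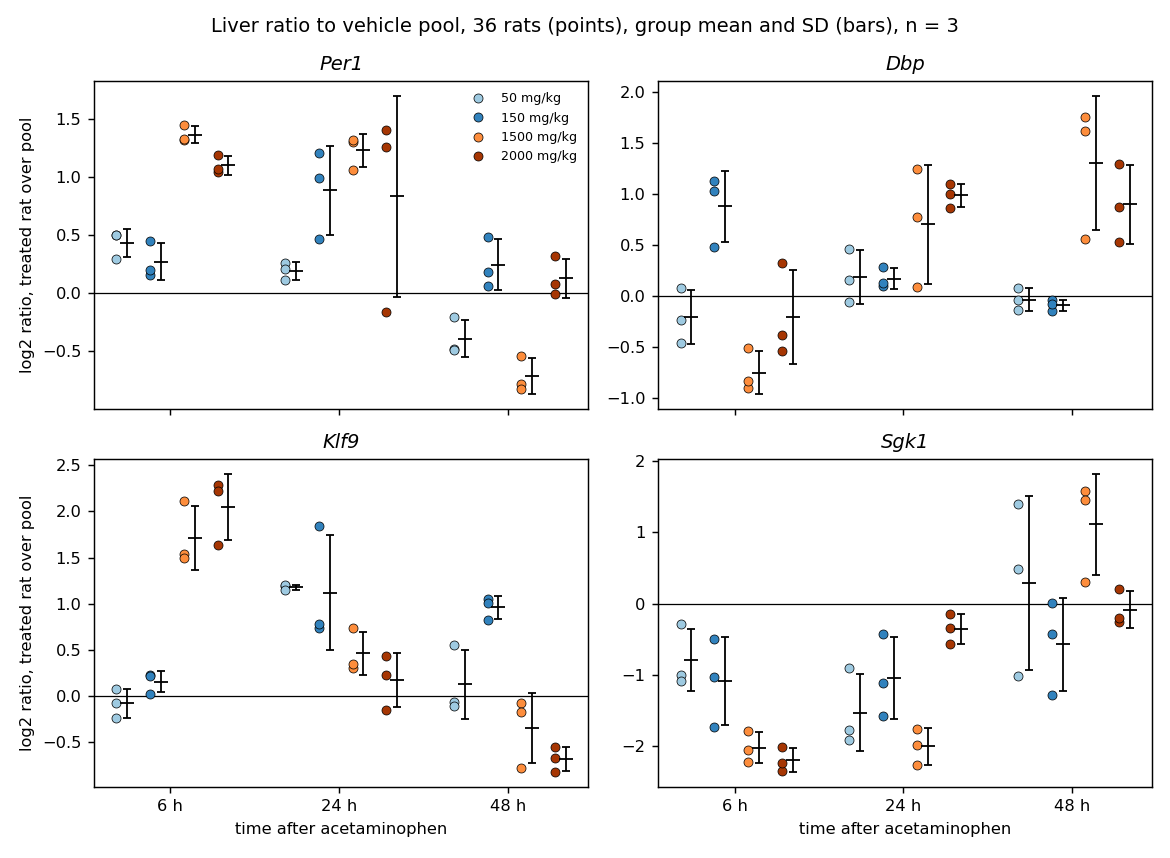
Log2 ratio of treated rat over control for Per1, Dbp, Klf9 and Sgk1 at 6, 24 and 48 h, with points for the 36 rats coloured by dose and bars for the group mean and SD (n = 3). Klf9 after 1500 and 2000 mg/kg is highest at 6 h (1.72 and 2.05) and lies below the 50 and 150 mg/kg rats at 24 h, while Sgk1 is below 0 in all 24 rats at 6 and 24 h.

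At 150 mg/kg and 24 h, where 1 array of each rat carried the sham and the other the mock control, the 2 readings of a rat also differ in dye. Klf9 was 1.04, 0.91 and 1.93 against the mock control and 0.43, 0.65 and 1.74 against the sham control. Sgk1 was -1.48, -1.07 and -0.53 against the mock and -1.69, -1.15 and -0.34 against the sham control. Per1 was 0.42, 0.81 and 1.21 against the mock and 0.51, 1.17 and 1.20 against the sham control. The sign was the same with either control in all 3 rats for these 3 genes. Dbp was 0.09, 0.08 and -0.03 against the mock and 0.10, 0.50 and 0.28 against the sham control. Its sign thus differed in rat 3074. Control and dye cannot be told apart here.

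Sorted by group mean, Klf9 ran from 2.05 (2000 mg/kg, 6 h) to -0.68 (2000 mg/kg, 48 h). Its neighbours in that order overlapped rat by rat except between 1500 mg/kg at 6 h and 50 mg/kg at 24 h, and between 150 mg/kg at 48 h and 1500 mg/kg at 24 h. Per1 ran from 1.36 (1500 mg/kg, 6 h) to -0.72 (1500 mg/kg, 48 h). The neighbours that did not overlap were its top pair, 6 h and 24 h at 1500 mg/kg, and the last 3 groups, 2000, 50 and 1500 mg/kg at 48 h. In the top pair the lowest 6 h rat, at 1.3211, lay barely above the highest 24 h rat, at 1.3203. On probe 1350 alone that order was turned, with means of 0.69 at 6 h and 0.91 at 24 h. Dbp ran from 1.31 (1500 mg/kg, 48 h) to -0.75 (1500 mg/kg, 6 h), with gaps only above 50 mg/kg at 48 h and above 1500 mg/kg at 6 h. Sgk1 ran from 1.11 (1500 mg/kg, 48 h) to -2.20 (2000 mg/kg, 6 h), and every neighbouring pair overlapped. For 3 of the 4 genes, the highest and the lowest group both came from the same dose, 1500 mg/kg for Per1 and Dbp and 2000 mg/kg for Klf9, at different times.

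To compare dose levels, the average of both high doses (1500 and 2000 mg/kg) was set against that of both low doses (50 and 150 mg/kg), time by time. At 6 h the high doses stood 1.84 higher for Klf9 (pooled SD 0.27), 0.88 higher for Per1 (0.11) and 1.17 on the log2 scale below the low doses for Sgk1, a difference of -1.17 (0.40). The rats of the 2 levels did not overlap for these 3 genes, while for Dbp the difference of -0.81 (0.33) came with overlap. The share of all features without such overlap was not computed. Nothing is therefore read from overlap in these genes, here or elsewhere. At 24 h the differences were -0.83 for Klf9 (0.36, no overlap), 0.67 for Dbp (0.33), 0.49 for Per1 (0.48) and 0.11 for Sgk1 (0.43), the last 3 with overlap. The Per1 difference at 24 h was -0.25 when every array was scaled to the same spread, and that of Klf9 was -1.61. At 6 h the same scaling gave -0.31 for Sgk1. At 48 h the differences were 1.16 for Dbp (0.38, no overlap), -1.06 for Klf9 (0.28), 0.65 for Sgk1 (0.79) and -0.22 for Per1 (0.18), with overlap in the last 3. The rule used for other genes below, a Benjamini-Hochberg adjusted p below 0.05 in limma and a change of at least 1.5-fold, would be passed by 4, 2 and 2 of the 4 genes at 6, 24 and 48 h. Over all 17299 features it was passed by 8.13%, 9.93% and 12.4%, and since the genes were chosen on these ratios nothing is read from their count.

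Against their own controls, the genes past that rule were 4 of 4 at 1500 mg/kg (7.03% of all features) and 3 of 4 at 2000 mg/kg (7.96%) at 6 h. At 24 h they were 2 at 50 mg/kg (3.55%), 2 at 150 mg/kg (0.145%), 3 at 1500 mg/kg (9.89%) and 2 at 2000 mg/kg (14.8%). At 48 h they were 0 at 50 mg/kg (3.95%), 1 at 150 mg/kg (1.48%), 3 at 1500 mg/kg (18.7%) and 2 at 2000 mg/kg (22%). At 6 h the low doses had none, against 1.42% of features at 50 mg/kg and 0.0347% at 150 mg/kg. Again nothing is read from these counts.

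The 2 high doses were also set side by side, as a description with no test. Per1 was 0.27 lower at 2000 than at 1500 mg/kg at 6 h, a difference of -0.27, and 0.84 higher at 48 h, with no overlap of rats at either time in the mean of its probes, though with overlap on probe 1350 at 6 h. Sgk1 was 1.65 higher at 2000 mg/kg at 24 h, and at 48 h the difference was -1.20, again with no overlap. The rats given 1500 and 2000 mg/kg overlapped at all 3 times for Klf9 and Dbp. Each dose had its own control, which enters these differences.

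Among themselves the 4 genes formed no single pattern. Over the 36 rats the Pearson correlation was 0.574 between Per1 and Klf9 and 0.435 between Dbp and Sgk1. It was -0.678 between Per1 and Sgk1, -0.652 between Klf9 and Sgk1, -0.595 between Dbp and Klf9, and -0.343 between Per1 and Dbp. These are descriptions over rats that share controls within a group. By sign, Per1 went with Klf9 and Dbp with Sgk1. Ranked by correlation among named genes, Klf9 came 95th for Per1 and Per1 240th for Klf9. Sgk1 came only 1277th for Dbp, and Dbp 874th for Sgk1. Of the textbook glucocorticoid targets, Sgk1 correlated negatively with Per1 and Klf9. The genes were chosen on these ratios, and the reason for the pattern was not tested.

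Of 8752 named genes with a value in every rat, the closest to Per1 over the 36 rats were Tat (r = 0.802), Zfp36 (0.79), Cdkn1a (0.789), Noct (0.781) and Gpatch4 (0.759). Zfp36 encodes an RNA-binding protein that promotes mRNA decay, Cdkn1a a cell cycle inhibitor and Noct the rhythmic phosphatase nocturnin. Closest to Klf9 were Il6r (0.854), Sds (0.846), Nr1i2 (0.825), C11h21orf91 (0.819) and Ahcy (0.814), among them the interleukin 6 receptor, serine dehydratase and the pregnane X receptor. Closest to Dbp were Trim47 (0.802), Tma7 (0.763), Kcnj8 (0.754), Bcl2a1 (0.747) and Gss (0.738), the last of which encodes glutathione synthetase. Closest to Sgk1 were Nfe2l2 (0.841), the redox regulator NRF2, followed by Aacs (0.788), Tmem51 (0.764), Tbc1d22b (0.754) and Gng11 (0.747). Likeness here is of pattern only, with a shared control in each group.

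**Figure D3:**
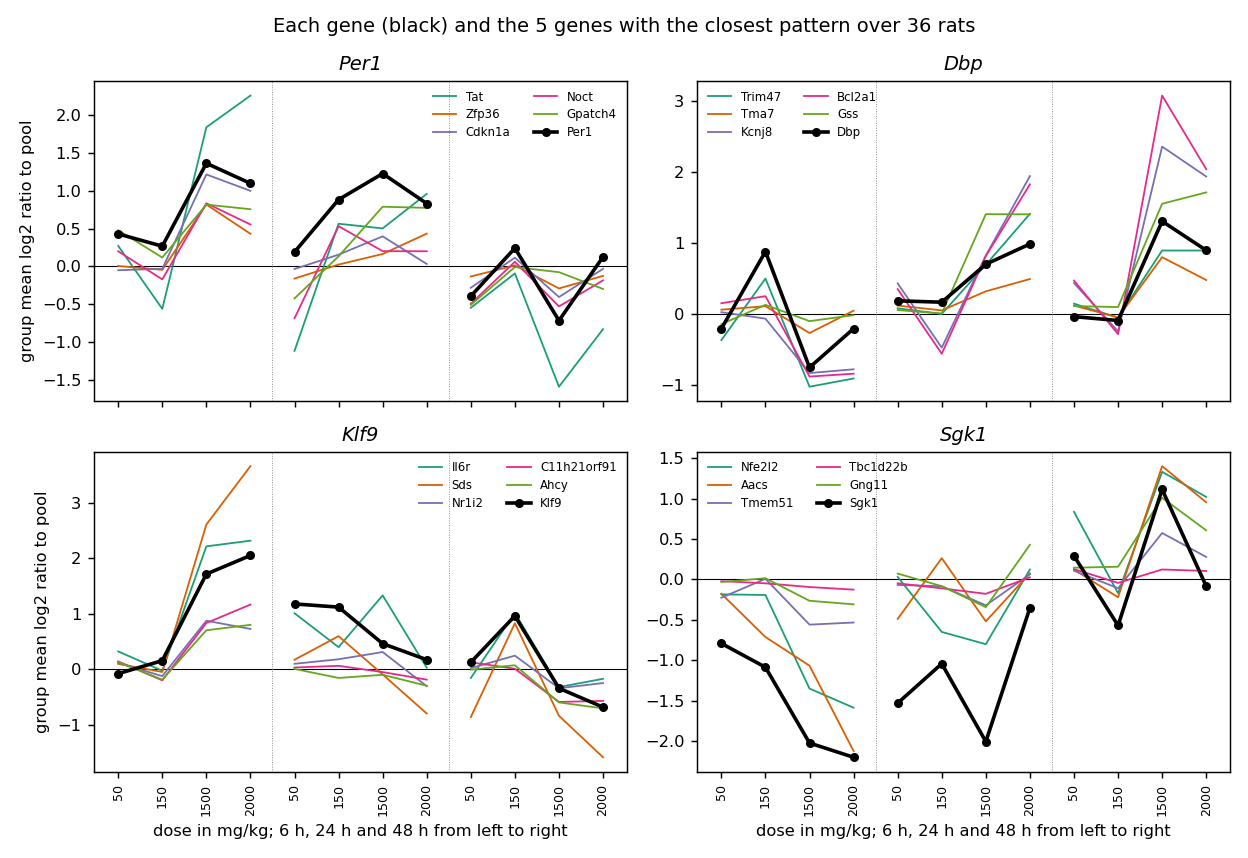
Group mean log2 ratio over the 12 dose and time groups (x axis, doses in mg/kg within 6, 24 and 48 h) for each of Per1, Dbp, Klf9 and Sgk1 in black and the 5 named genes with the closest pattern in colour. Sgk1 lies lower than its 5 companions at 24 h, at -1.53 after 50 mg/kg.

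Of 23 listed genes of the core loop and its output factors, 13 were tested, and between dose levels at 6 h, where 8.13% of all features passed, none of them passed the rule in limma (median log2 difference 0.10, against -0.004 over all features). Without the fold minimum 3 passed, and 3 higher and 2 lower had an unadjusted p below 0.05. At 24 h, with 9.93% of all features passing, 2 were higher and 0 lower at the high doses (median -0.04, against -0.02). They were Per2, the paralogue of Per1, at 1.20 (SE 0.30, limma adjusted p = 0.00237), and Timeless, whose mammalian product works mainly at replication forks, at 0.61 (SE 0.20, adjusted p = 0.0198). One 50 mg/kg rat had no value for Timeless at 24 h, and its call was lost when any of rats 3018, 3069, 3106 and 3138 was left out. At 48 h, with 12.4% of all features passing, the same 2 genes were higher (median 0.15, against -0.03), Timeless at 1.60 (SE 0.19, adjusted p = 1.97e-07) and Per2 at 0.89 (SE 0.30, adjusted p = 0.0178). The Per2 call at 48 h was lost without rat 3006 (adjusted p = 0.0671), without rat 3119 (0.0593) and with equal spread (0.125). The Per2 difference was -0.54 (SE 0.30, adjusted p = 0.17) at 6 h, where Per1 stood 0.88 higher.

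Tef, Nfil3 and Bmal1 were set beside the 4 whatever their values. Tef, a PAR bZIP factor like Dbp, differed between dose levels by 0.31, 0.58 and 0.31 at 6, 24 and 48 h, under the fold minimum each time. In single groups it was higher at 2000 mg/kg and 6 h (0.79 ± 0.14, adjusted p = 5.41e-07) and at 1500 mg/kg and 24 h (0.92 ± 0.10, adjusted p = 4.52e-08), n = 3 each in the limma fit. Nfil3, a repressor that binds the same D-box sites, differed by -0.01, 0.17 and 0.02, and Bmal1, the activator, by 0.21, -0.19 and -0.14, with none passing. Bmal1 was lower at 1500 mg/kg and 48 h at -0.61 (limma adjusted p = 0.0022), where 1 of the 3 rats had no value, and -0.46 with equal spread, under the fold minimum. Per2 in single groups was lower at 2000 mg/kg and 6 h (-1.15 ± 0.56, adjusted p = 0.00379). It was higher at both high doses at 24 h (0.81 ± 0.72 and 0.96 ± 0.61) and at 48 h (1.09 ± 0.88 and 1.18 ± 0.49), with limma adjusted p of 0.0332, 0.00949, 0.0027 and 0.00139. Of these 5 Per2 calls, 4 were lost when 1 rat was left out, rat 3094 at 6 h, 3018, 3019 or 3107 at 24 h, and 3006 at 48 h. With equal spread the Per2 calls at 1500 and 2000 mg/kg and 24 h were lost (limma adjusted p = 0.137 and 0.0862). With the group fitted alone those at 1500 mg/kg were lost at 24 h (limma adjusted p = 0.138) and 48 h (0.0833). In the single high dose groups 0 to 4 of the 13 clock genes passed, with 4 at 2000 mg/kg and 48 h, where 22% of all features did. At 50 and 150 mg/kg 1 of them passed in any group: Rorb, a receptor of the ROR family, at 50 mg/kg and 48 h (-0.73 ± 0.33, limma adjusted p = 0.0352), a call lost without any 1 rat. At 2000 mg/kg and 48 h Rorb was lower (-0.73 ± 0.50, limma adjusted p = 0.0125) and Clock higher (0.63 ± 0.01, adjusted p = 0.00673). Both calls were lost with equal spread, and that of Rorb without rat 3119. Bhlhe40 was lower at 2000 mg/kg and 6 h (-0.62 ± 0.15, limma adjusted p = 0.000346), under the fold minimum without rat 3093 or 3094.

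Of 12 listed liver genes with a daily rhythm, 6 were tested, and 1 passed between dose levels at each time. Noct was higher at 6 h (0.68, SE 0.18, limma adjusted p = 0.00515), and Nampt, of NAD synthesis, at 24 h (0.73, SE 0.12, adjusted p = 1.77e-05). Alas1, the first enzyme of haem synthesis, was lower at 48 h (-0.69, SE 0.19, adjusted p = 0.00438). With every array at equal spread these 3 calls were lost, at adjusted p of 0.0604, 0.0863 and 0.112. Without rat 3032 Noct stood at 0.56, under the fold minimum. Against its own control Alas1 was higher at 6 h after 50 mg/kg (1.44 ± 0.14, limma adjusted p = 7.7e-06), 1500 mg/kg (1.08 ± 0.41, adjusted p = 0.000156) and 2000 mg/kg (1.09 ± 0.32, adjusted p = 6.54e-05), and at 24 h after 1500 mg/kg (0.91 ± 0.69, adjusted p = 0.000474). At 48 h it was lower after 50 mg/kg (-0.73 ± 0.19, adjusted p = 0.00834) and 1500 mg/kg (-1.03 ± 0.15, adjusted p = 4.22e-05), and higher after 150 mg/kg (0.62 ± 0.24, adjusted p = 0.0448). The 150 mg/kg call was lost without any 1 rat, and the 50 mg/kg call without rat 3150 or 3151. With each group fitted alone the calls at 1500 mg/kg at 6 h (adjusted p = 0.182) and 24 h (0.104), and at 50 mg/kg (0.0615) and 150 mg/kg (0.0904) at 48 h, were lost.

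Glucocorticoid targets other than the 4 genes were counted in the same way. Of 28 listed, 24 were tested. At 6 h 15 were higher and 0 lower at the high doses in limma (median log2 difference 0.94, against -0.004 over all features), and 1 was lower at an unadjusted p below 0.05. At 24 h 8 were higher and 4 lower (median 0.16), and at 48 h 5 were higher and 9 lower (median -0.34). Of all features, 4.67% passed as higher and 3.46% as lower at 6 h. The corresponding shares were 6.56% and 3.37% at 24 h and 8.26% and 4.09% at 48 h. This list, like the other gene lists here, was drawn up with earlier results of these data known. Its counts, here and in the single groups below, are therefore a description, and nothing is read from them against these shares. The genes with the largest changes at 6 h were Igfbp1, an insulin-like growth factor binding protein (3.21, SE 0.26, limma adjusted p = 6.41e-10), and the amino acid enzymes Got1 (3.13, SE 0.23) and Sds (3.11, SE 0.34), followed by the metallothionein Mt1 (2.61, SE 0.30). Many of these genes answer to fasting, insulin, metals or stress as well as to the hormone.

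Among targets known for a direct response to the receptor, Fkbp5, Tsc22d3 and Tat had dose level differences that were highest at 6 h. Their values were lower at each later time. They varied in which times passed the rule, and differences between these genes were not tested. Fkbp5, a co-chaperone of the receptor, was higher by 2.05 at 6 h (SE 0.13, limma adjusted p = 3.92e-12) and by 0.89 at 24 h (adjusted p = 4.03e-06), and stood at 0.51 at 48 h, under the fold minimum. Tsc22d3, which encodes the glucocorticoid-induced leucine zipper, was higher at 6 h (0.93, SE 0.18, adjusted p = 0.000254), at 0.13 at 24 h (adjusted p = 0.621), and lower at 48 h (-1.04, SE 0.18, adjusted p = 3.91e-05). Tat was higher at 6 h (2.20, SE 0.33, adjusted p = 1.21e-05) and at 24 h (1.01, SE 0.33, adjusted p = 0.0182), and lower at 48 h (-0.89, SE 0.33, adjusted p = 0.0307). The Tat call at 24 h was lost without rat 3069 (adjusted p = 0.0726), and that at 48 h without any of 6 single rats, at adjusted p from 0.0598 to 0.116. With equal spread both were lost (adjusted p = 0.493 and 0.464). Tested as a difference between times, the dose level difference of Tat fell by 1.90 from 24 to 48 h (limma adjusted p = 0.00638), a test passed by 6.46% of features. The same test from 6 to 24 h, passed by 13.1%, gave 1.74 for Per2 (limma adjusted p = 0.00315).

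At the low doses 0 to 3 of the 24 targets passed in a group. After 50 mg/kg at 24 h, where Klf9 stood at 1.18 and Sgk1 at -1.53, Fkbp5 was 0.11 ± 0.15 and Tsc22d3 -0.37 ± 0.37, neither passing, and Tat was lower at -1.12 ± 0.07 (limma adjusted p = 0.0175). In that group 1 of the 24 targets was higher, Tdo2 (0.61 ± 0.11, adjusted p = 0.00643), and 2 were lower, Tat and G6pc1 (-1.21 ± 0.22, adjusted p = 0.0152). The Tat and G6pc1 calls were lost without any 1 of the 3 rats, and that of Tdo2 without rat 3137 (adjusted p = 0.0752). Of all features, 3.55% passed in that group. After 150 mg/kg at 48 h, where Klf9 stood at 0.96, Fkbp5 was 0.24 ± 0.12 and Tsc22d3 0.53 ± 0.06, neither passing. There 1 target was higher, Tdo2 (0.83 ± 0.22, limma adjusted p = 0.000853), and 2 were lower, Mt2A (-1.60 ± 0.14, adjusted p = 0.00385) and Mt1 (-1.01 ± 0.09, adjusted p = 0.0377). The Mt1 call was lost without any 1 rat and the Mt2A call without rat 3059, in a group where 1.48% of all features passed. After 150 mg/kg at 6 h the 2 targets that passed were Mt2A (2.97 ± 0.49, adjusted p = 4.24e-05) and Mt1 (1.86 ± 0.29, adjusted p = 0.00497), both higher, the latter lost without any 1 rat, against 0.0347% of all features. At 24 h after that dose the 1 that passed was Errfi1, a feedback inhibitor of the EGF receptor (0.62 ± 0.17, adjusted p = 0.014), also lost without any 1 rat, against 0.145% of all features. At 50 mg/kg, none of the 24 passed in limma at 6 h or at 48 h, where 3 and 4 had an unadjusted p below 0.05.

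Among the high dose groups, 16 targets were higher and 0 lower at 1500 mg/kg and 6 h, and 11 and 0 at 2000 mg/kg. At 24 h there were 7 higher and 2 lower at 1500 mg/kg, and 7 and 3 at 2000 mg/kg. At 48 h there were 5 higher and 8 lower, and 7 and 8. Over all features the higher and lower shares were 4.21% and 2.82% at 1500 mg/kg and 6 h, and 5.11% and 2.85% at 2000 mg/kg. At 24 h they were 7.14% and 2.75%, then 10.3% and 4.43%, and at 48 h 13.3% and 5.42%, then 12.8% and 9.17%. At 6 h Sgk1, at -2.02 and -2.20, stood below its control after 1500 and 2000 mg/kg. None of the 24 other targets passed the rule in that direction, and at 2000 mg/kg 1 had an unadjusted limma p below 0.05. Sgk1 was chosen with its ratios known and was not tested, so nothing is read from this contrast.

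The targets highest at 24 h were Mt2A (3.99, SE 0.34, limma adjusted p = 7.88e-10), Mt1 (3.61, SE 0.30), Igfbp1 (2.43, SE 0.26) and Cebpd, a C/EBP transcription factor (1.39, SE 0.24). Those lowest were G6pc1, the last enzyme of glucose release (-1.81, SE 0.34, adjusted p = 0.000169), Glul (-1.47, SE 0.17), Pck1 (-0.76, SE 0.20) and Errfi1 (-0.64, SE 0.12). At 48 h Mt2A stood at 4.27 (SE 0.34) and Mt1 at 2.71 (SE 0.30), ahead of Anxa1 (1.37, SE 0.19) and Cebpd (0.96, SE 0.24). Pck1, of gluconeogenesis, was lowest at -2.13 (SE 0.20, limma adjusted p = 5.24e-09), followed by G6pc1 (-1.92, SE 0.34), Glul (-1.85, SE 0.17) and Sds (-1.20, SE 0.34), the last lost with equal spread (adjusted p = 0.103). Mt2A at 6 h depended on scaling, being 1.57 as given (adjusted p = 0.000879) and -0.11 with every array at equal spread (adjusted p = 0.882).

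**Figure D4:**
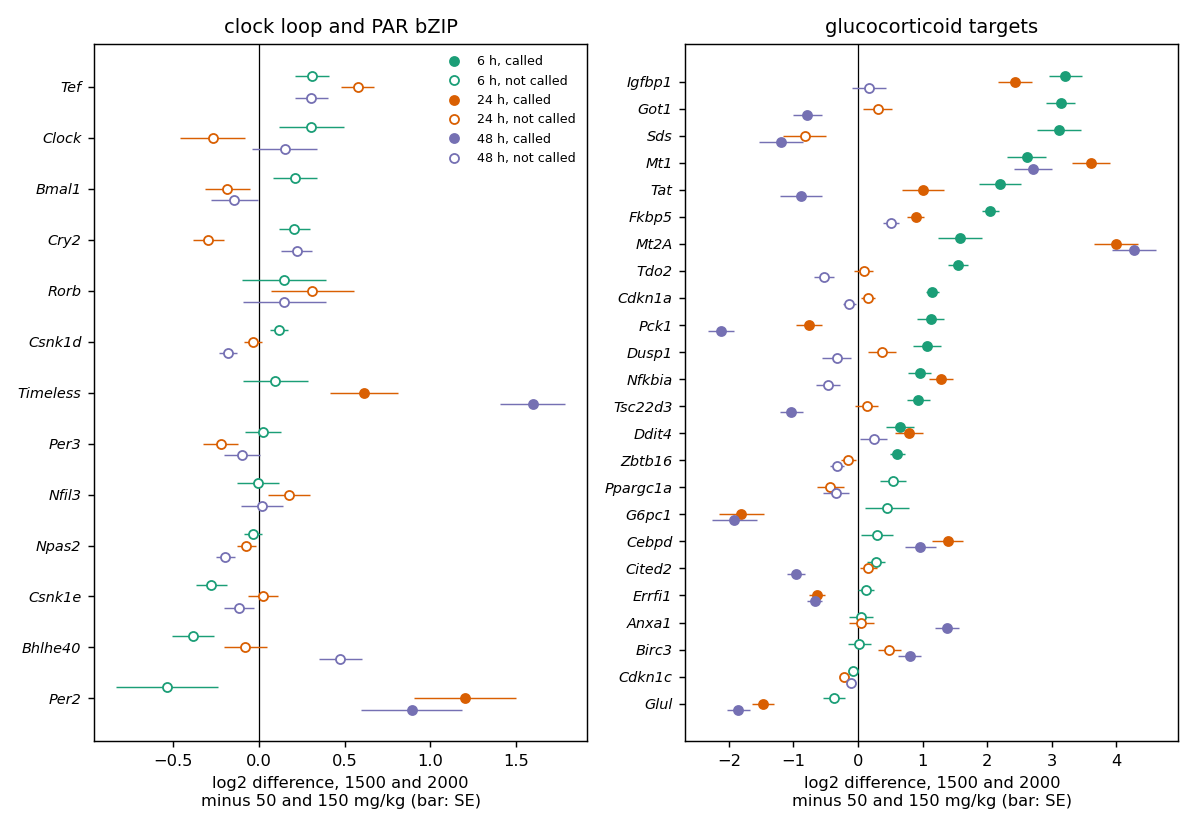
Log2 difference between 1500 and 2000 and 50 and 150 mg/kg (x axis, bars for SE) for 13 clock genes on the left and 24 glucocorticoid targets on the right at 6, 24 and 48 h, filled where a gene passed the rule in limma. At 6 h 0 clock genes and 15 targets are filled, and the filled 48 h points of the targets lie on both sides of 0, 5 higher and 9 lower.

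The receptor itself, Nr3c1, was lower between dose levels at every time, with log2 differences of -0.68, -0.79 and -0.75 at 6, 24 and 48 h (SE 0.11 each, limma adjusted p = 3.09e-05, 2.22e-06 and 3.8e-06). With equal spread the 24 h difference was -0.50, under the fold minimum. In single groups Nr3c1 was lower at 2000 mg/kg and 6 h (-1.04 ± 0.25, adjusted p = 3.89e-08), 1500 mg/kg and 24 h (-0.87 ± 0.14, adjusted p = 5.73e-07) and 2000 mg/kg and 48 h (-0.69 ± 0.09, adjusted p = 6.31e-06). In the other high dose group of each time it did not pass, with -0.28 ± 0.32 at 1500 mg/kg and 6 h (adjusted p = 0.0586), -0.55 ± 0.16 at 2000 mg/kg and 24 h (adjusted p = 0.000176, under the fold minimum) and -0.21 ± 0.10 at 1500 mg/kg and 48 h (adjusted p = 0.0989). After 50 mg/kg it stood at 0.43 ± 0.22 at 24 h and 0.45 ± 0.31 at 48 h, under the fold minimum, which adds to those differences. Of 15 listed genes of the receptor, its chaperones, cofactors and hormone handling, 13 were tested. At 6 h 2 were higher (Fkbp5 and Hsd11b2, which inactivates the hormone, at 0.68) and 1 lower. Without rat 3032 Hsd11b2 stood at 0.51, under the fold minimum. At 24 h 4 were higher, namely the heat shock proteins Hsp90aa1 (2.62) and Hsp90ab1 (1.23), the co-chaperone Stip1 (0.92) and Fkbp5, and 2 lower, Nr3c1 and Serpina6. At 48 h Hsp90aa1 (1.55) and Stip1 (0.87) were higher and Nr3c1 and Serpina6 lower. Serpina6 encodes the glucocorticoid carrier of blood, and its differences were -1.69 (SE 0.12, limma adjusted p = 2.64e-11) at 24 h and -1.25 at 48 h. Medians of the list were 0.06, 0.05 and -0.002. Hsd11b1, which regenerates active hormone in liver, was higher after 50 mg/kg at 24 h (0.89 ± 0.13, limma adjusted p = 6.65e-07) and 48 h (0.61 ± 0.23, adjusted p = 0.000108). Without rat 3151 the 48 h value was 0.48, under the fold minimum. With each group fitted alone both calls were lost (limma adjusted p = 0.0543 and 0.0717).

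Of 17 listed relatives of Klf9 and Sgk1, 14 were tested, with medians of -0.09, 0.06 and 0.04 at 6, 24 and 48 h. At 6 h 3 Kruppel-like factors were higher, Klf6 (1.24, SE 0.35, limma adjusted p = 0.00728), Klf15 (1.04, SE 0.27, adjusted p = 0.00458) and Klf10 (0.69, SE 0.13, adjusted p = 0.000305). Klf13, which like Klf9 belongs to the repressor branch of the family, was lower (-0.90, SE 0.16, adjusted p = 0.000118). Klf15, itself a known glucocorticoid target in muscle and liver, lost its call at 6 h with equal spread (adjusted p = 0.0822), and at 24 h and 48 h it stood at 0.32 and -0.46, not passing. After 50 mg/kg at 24 h, where Klf9 was 1.18, Klf15 was -0.03 ± 0.05. At 24 h Klf6 was higher (1.97, SE 0.35, adjusted p = 6.59e-05), and at 48 h Klf6 (1.16), Klf4 (1.03) and Klf10 (0.72) were higher. Sgk2, the paralogue of Sgk1, differed by -0.33, -0.44 and 0.11, not passing at any time.

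Markers of other cells moved with the later times. Between dose levels at 6 h, 0 of 12 macrophage, 5 neutrophil, 5 stellate cell, 6 proliferation and 5 hepatocyte markers tested passed in limma, and 1, 0, 1, 1 and 1 of them had an unadjusted p below 0.05. At 24 h 2 macrophage, 2 neutrophil and 2 proliferation markers were higher, and 1 macrophage and 1 stellate marker lower. At 48 h 4 macrophage, 3 neutrophil, 3 stellate and 5 proliferation markers were higher, with list medians of 0.36, 0.78, 1.06 and 2.40. Of all features, 6.56% passed as higher and 3.37% as lower at 24 h, and 8.26% and 4.09% at 48 h. Of the hepatocyte markers 1 was higher at 24 h, and 1 was higher and 1 lower at 48 h, where their list median was -0.275. The part of these shifts in the 24 h and 48 h ratios of Per1, Dbp, Klf9 and Sgk1 was not tested. In the single 6 h groups 1 of these markers passed, the hepatocyte product Fgb, higher at 2000 mg/kg (0.73 ± 0.18, limma adjusted p = 0.0016).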

How the data were processed

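Per the labels, total RNA of single rats and control pools was labelled with Cy3 and Cy5, hybridised to the Agilent rat oligonucleotide array and read with Agilent's scanner and Feature Extraction software. The authors deposited 1 log10 ratio for each probe and array, and the sources used here do not state normalization, settings or direction. Values were capped at 2 (23 values at the cap), 0.211% were missing, and array medians lay between -0.0191 and 0.019, so the arrays were centred. The treated dye of each array was taken from the labels and log10 ratios were turned to treated over control, converted to log2, averaged over the 2 arrays of a rat and over probes of a symbol. Before turning, the 2 arrays of a rat correlated below 0 in 21 of 36 rats (-0.718 to 0.431). Exchanged dyes turn the sign of a ratio, so 2 like arrays would correlate below 0 before turning. In the remaining rats the 2 turned arrays therefore did not correlate positively over all probes. Of 20500 probes 12750 had 1 symbol, 5 several and 7745 none; 12720 matched an Entrez identifier in the current rat table. Features with values in at least 2 rats of every group, 17299 of 17403, entered 1 limma fit (3.58.1, R 4.3.3) of 12 group means, with contrasts between dose levels and times, tested two-sidedly with Benjamini-Hochberg adjustment over all features. Ratios were tested against 0, each pool counting as 1 control sample. The members and gene lists were chosen with earlier results of these data known. Named from the lists are genes called between dose levels, up to 4 a list and direction by size of change. Per2, Bmal1, Nfil3, Tef, Tsc22d3, Fkbp5, Nr3c1, Tat and Klf15 are named whatever their values. Genes called in single groups, and cell markers, are only partly named. Nr1d1 was to be named too and was not tested here, and Sgk2 was chosen after its value was seen. Alternatives tried were equal spread of arrays, median centring, 1 dye orientation, single Per1 probes, no fold minimum, fits of a time or group alone, and leaving out each rat.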

Additional observations from a re-analysis of the deposited data

Results flagged for a closer look

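In 6 cases all 3 rats of a dose lay on one side of their control at one time and all 3 on the other side at the next, a difference that was not tested. The share of all features with such a crossing was not computed, so nothing is read from this count. For Sgk1 the 1500 mg/kg group mean stood 3.12 higher at 48 h than at 24 h. For Per1 the change from 24 to 48 h was -1.95 after 1500 mg/kg and -0.58 after 50 mg/kg. For Klf9 after 1500 mg/kg it was -0.80, and for Dbp after 150 mg/kg it was -0.26. With the treated rat in Cy5 alone, the 48 h mean of that Dbp group was 0.25, and the crossing was absent. Dbp after 1500 mg/kg stood 1.45 higher at 24 h than at 6 h. The control differs between times and enters each of these values.

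Among listed genes, the difference between dose levels itself differed between times in limma. From 6 to 24 h it was larger by 1.74 for Per2 (adjusted p = 0.00315), 2.42 for Mt2A (adjusted p = 0.000531) and 1.10 for Cebpd (adjusted p = 0.0188). It changed by -3.94 for Sds (adjusted p = 9.68e-07), -2.83 for Got1, -2.25 for G6pc1 and -1.88 for Pck1. From 24 to 48 h it was larger by 0.98 for Timeless (adjusted p = 0.0176) and 1.32 for Anxa1. It changed by -2.26 for Igfbp1, -1.90 for Tat, -1.75 for Nfkbia and -1.37 for Pck1. Over all features 13.1% passed the rule for the first of these tests and 6.46% for the second.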

How the results depend on the processing

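Among the 12 dose level differences of Per1, Dbp, Klf9 and Sgk1, median centring and either dye orientation alone moved none by more than the spread between rats. Scaling every array to equal spread gave 0.62 for Per1, -1.15 for Dbp and -0.31 for Sgk1 at 6 h, and -0.25 for Per1, -1.61 for Klf9 and 0.91 for Sgk1 at 24 h, which for Per1 turned the sign. The cause of these shifts was not tested. Of the 48 group means, equal spread moved 18 by more than the spread between rats, with the same sign in all 48. Each orientation alone moved 7 with the sign kept, and single Per1 probes moved 7 of 12 each. The sign turned on 1 orientation alone in 5: Dbp at 2000 mg/kg and 6 h (0.01 against -0.20, within its spread, in Cy5), Dbp at 50 mg/kg and 24 h (-0.16 with the treated rat in Cy3), Dbp at 48 h after 50 and 150 mg/kg (0.21 and 0.25 in Cy5), and Klf9 at 50 mg/kg and 6 h (0.25 in Cy3).

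Counts of called clock genes with equal spread were 1 at 50 mg/kg and 6 h, 2 at 150, 1 at 1500 and 0 at 2000 mg/kg and 24 h, 2 at 2000 mg/kg and 48 h, and 1 between dose levels at 48 h. Without a fold minimum they were 1 at 50 and 3 at 1500 mg/kg at 6 h, 7 and 3 at 1500 and 2000 mg/kg at 24 h, 2, 8 and 7 at 50, 1500 and 2000 mg/kg at 48 h, and 3, 4 and 6 between dose levels. Fitted on the rats of the group alone they were 1 at 1500 mg/kg and 24 h and 0 at 50 mg/kg and 48 h. For glucocorticoid targets equal spread gave 3 and 4 at 50 and 150 mg/kg at 6 h and 5 at 150 mg/kg and 24 h, and no fold minimum gave 1 at 50 mg/kg and 48 h. Their group alone gave 1, 0 and 7 at 50, 150 and 1500 mg/kg at 6 h, and 0 at 50 and 150 mg/kg at 24 h and at 150 mg/kg at 48 h, with fewer rats to estimate the spread. Between dose levels, no fold minimum gave 6, 10 and 9 receptor genes at 6, 24 and 48 h, 4 relatives at 24 h, and 3 and 2 rhythmic liver genes at 6 and 24 h. Equal spread gave 0 rhythmic liver genes at each time.

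Without 1 rat, clock counts ranged from 1 to 3 at 2000 mg/kg and 6 h and at 1500 mg/kg and 24 h, 0 to 1 at 2000 mg/kg and 24 h, and 0 throughout at 50 mg/kg and 48 h. Between dose levels they were 0 to 1, 1 to 3 and 1 to 2. Target counts were 0 to 1 at 50 mg/kg at 6 h and 48 h, 1 at 150 mg/kg and 6 h and at 50 mg/kg and 24 h, 0 at 150 mg/kg and 24 h, and 1 to 2 at 150 mg/kg and 48 h. Relatives at 24 h were 1 to 2, and rhythmic liver genes at 6 h 0 to 1. Leaving out a rat moved none of the dose level differences by more than the spread, and 143 of 144 such values had the same sign. No paired analysis was possible because the groups share no rat numbers.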
